A study of Mus musculus with 4 samples.

Results

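The retinaldehyde dehydrogenases and the retinoid signalling genes downstream of them were examined in mammary tumours of MMTV-R26Met mice. The set holds 9 genes of the 28440 rows of the count table. They were chosen by name and not by a cutoff on their values, but with earlier results of these data known. These are the enzymes Aldh1a1, Aldh1a2 and Aldh1a3, the carriers Crabp1 and Crabp2, the receptors Rara, Rarb and Rarg, and the retinoic acid hydroxylase Cyp26b1. Bulk poly-A RNA was sequenced from 4 mammary gland tumours, numbered 1 to 4, all of the MMTV-R26Met genotype. In this model of triple-negative breast cancer, Cre recombinase driven by the MMTV promoter, which is active mainly in mammary epithelium, switches on a Met transgene placed at the Rosa26 locus. The 4 tumours form 1 group with no normal, untreated or control tissue, so the comparison is between tumours. The sources used here give neither ages nor whether each tumour came from its own mouse, and p-values therefore describe only the spread among these 4 tumours.

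Retinol enters cells, is oxidised to retinaldehyde and is then oxidised to retinoic acid by the ALDH1A enzymes. Retinoic acid is handed by CRABP carriers to nuclear retinoic acid receptors, which bind DNA with RXR partners and switch on target genes, while CYP26 enzymes break the acid down. In the mammary gland ALDH activity and Aldh1a3 transcripts have been used to mark luminal progenitor cells, and human breast tumours with high ALDH activity have been described as rich in tumour-initiating cells.

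The retinoic acid response element is the sequence through which this pathway feeds back on its own genes, and it is shown for that reason. Its DR5 form is a direct repeat of a core motif related to AGGTCA with a spacer of 5 bases, 17 bases in all. RefSeq promoter windows (GRCm38.p6, 250 bases before to 50 bases after an annotated start of a gene) were searched for it on both strands. Windows were given for 7 of the 9 genes, in 12 windows, and 1 of the 7 genes held the element, which was Rarb. Aldh1a3 and Crabp2 had no window and were not searched. Across all genes with a window, 31 of 27025 held it (0.115%). Within the 64 retinoid genes with a window, those holding it were Rarb and Cyp26a1, another retinoic acid hydroxylase. The Rarb window lies at chr14:16575427-16575726 on the minus strand, around the start of an annotated Rarb transcript, and its element runs from 53 to 37 bases before that start. The Rarb window is printed 5′ to 3′ along the gene, followed by the elements of both genes, with the element in capitals.
Rarb promoter: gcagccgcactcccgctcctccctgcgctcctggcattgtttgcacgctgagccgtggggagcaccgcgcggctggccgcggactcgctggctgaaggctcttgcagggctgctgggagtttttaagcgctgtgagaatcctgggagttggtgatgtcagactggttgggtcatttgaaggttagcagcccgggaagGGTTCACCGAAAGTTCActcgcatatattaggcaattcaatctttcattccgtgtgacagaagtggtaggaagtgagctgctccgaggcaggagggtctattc
Rarb element: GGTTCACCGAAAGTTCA
Cyp26a1 element: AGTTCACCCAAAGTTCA
The Cyp26a1 element lies on the strand opposite to its gene, at chr19:37697776-37697792. It runs from 32 to 16 bases before the start of an annotated Cyp26a1 transcript. In the RefSeq coordinates the gene begins at 37697738, so the element lies within the span of the gene. The DR2 form, with a spacer of 2 bases, was in 0 of the 12 windows of the set and in 0.311% of all genes with a window. A match in letters is a description and does not show that a receptor binds there.

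The libraries held 35220504 to 42809015 counts. On the CPM scale used here (counts relative to library size after TMM scaling) a count of 0 allows up to 0.0708 to 0.0868 CPM, taking 3 counts as the limit. Krt8, a simple epithelial keratin, had 787, 1183, 1092 and 1235 CPM in tumours 1 to 4, and of the 6 epithelial markers Cldn4, a claudin gene, was too scarce to be tested, with 0, 24, 21 and 26 counts. Skeletal muscle markers stood apart in tumour 3. Their sum over 6 genes was 1715 CPM there, against 3.35, 7.29 and 4.05 CPM in tumours 1, 2 and 4, and all 6 were highest in tumour 3. With no groups to contrast, each gene was asked whether it varied among the tumours more than other genes of its expression level (edgeR negative binomial deviance, adjusted by Benjamini-Hochberg across the whole table, with a threshold of 0.05); this is called the spread test. Of 15808 genes tested, 574 passed (3.63%).

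Of the 9 genes, 7 had enough counts in all 4 tumours to be tested, and 2 passed, Aldh1a3 and Crabp2, beside the 3.63% over all genes tested. Without tumour 1 the number was 1 of 7, Crabp2, beside 410 of all 15920 genes then tested. Without tumour 4 the number was 3 of 8, Aldh1a2, Aldh1a3 and Rarb but not Crabp2, beside 367 of 16006. At an unadjusted p below 0.05 stood 5 of the 7, beside 8.74% of all genes tested. Holm adjustment called 1 of the 7 (1.25% of all genes tested), the common dispersion 4 (4.31%) and DESeq2's dispersion outliers 0 (0.576%). Aldh1a1 and Crabp1 were too scarce in a tumour to be tested. The median SD of log2 CPM over the tumours was 1.51 for the 7 tested genes and 0.35 for all genes tested. The median ratio of the highest to the lowest tumour was 11.7 for the 7 and 1.73 for all. Highest values fell in tumour 3 for 4 genes, in tumour 4 for 3, in tumour 1 for 1 and in tumour 2 for 1. Over all genes tested the shares highest in tumours 1 to 4 were 22.9, 18.9, 29.7 and 28.5%. In bulk tissue, fewer cells of a type and less RNA per cell cannot be told apart.

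**Figure D1:**
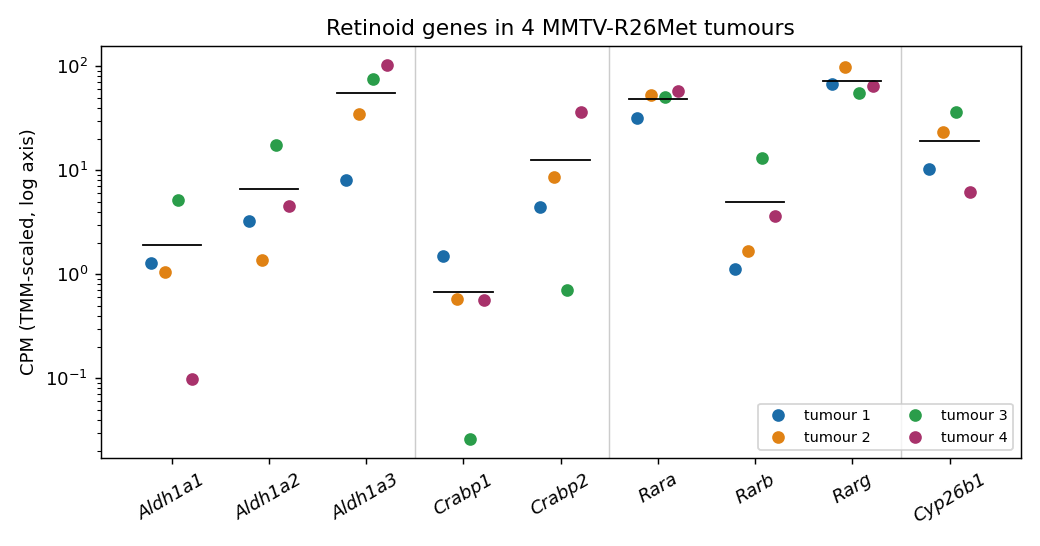
Level of each of the 9 genes in CPM (log axis), with 1 point per tumour and a line at the mean of the 4 tumours; vertical lines part enzymes, carriers, receptors and the hydroxylase. Rara and Rarg lie close together across tumours (1.83-fold and 1.75-fold from lowest to highest), whereas Aldh1a3 and Crabp2 span 13.0-fold and 51.6-fold.

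Aldh1a3, which oxidises retinaldehyde to retinoic acid and is used as a luminal progenitor marker, was the main ALDH1A transcript of these tumours and varied 13.0-fold among them. Aldh1a3 (Entrez gene 56847, chromosome 7, 66390892 to 66427477, GRCm38) had 339, 1204, 2899 and 4242 counts in tumours 1 to 4, which correspond to 7.995, 34.8, 75.8 and 104 CPM. Tumours 3 and 4 were high, tumour 2 intermediate and tumour 1 low, with a mean of 55.5 ± 42.5 CPM (SD, n = 4). The gene passed the spread test (edgeR adjusted p = 0.000777, SD of log2 CPM 1.65). Its call rested on tumour 1, since without that tumour the edgeR adjusted p was 0.984 and the log2 range fell to 1.57. Aldh1a3 also did not pass with Holm adjustment of the edgeR p-values (adjusted p = 0.182) and was not a dispersion outlier by DESeq2.

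Aldh1a2, the enzyme that makes most retinoic acid in the mouse embryo, was highest in tumour 3. Aldh1a2 (Entrez gene 19378, chromosome 9) had 138, 47, 669 and 184 counts in tumours 1 to 4, or 3.25, 1.36, 17.5 and 4.49 CPM. Tumour 3 stood highest and tumour 2 lowest, a 12.9-fold span that did not pass the spread test (edgeR adjusted p = 0.101). It did pass when tumour 4 was left out (edgeR adjusted p = 0.0369), and the log2 range was 1.69 without tumour 3. Aldh1a2 is also known from mesothelium, and the mesothelial markers Upk3b and Lrrn4 had no counts in any tumour. The other markers of that list, Msln, Wt1 and Upk1b, were scarce and each highest in tumour 3 by CPM, as Aldh1a2 was. For Msln and Upk1b tumour 4 was nearly equal, with 45 and 48 counts and 5 and 5 counts in tumours 3 and 4. Wt1 had 22 and 8 counts there. All 5 markers summed to 0.236, 0.289, 1.88 and 1.49 CPM in tumours 1 to 4. The part of mesothelial cells in the Aldh1a2 values was not tested.

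Aldh1a1, a broadly acting retinaldehyde dehydrogenase, was scarce in every tumour and nearly absent in tumour 4. Aldh1a1 (Entrez gene 11668, chromosome 19) had 54, 36, 198 and 4 counts in tumours 1 to 4. On the CPM scale this was 1.27, 1.04, 5.18 and 0.0977, and the exact Poisson interval (95%, counting error only) in tumour 4 was 0.0266 to 0.250 CPM. Tumour 3 was the highest here too. Some reads counted for Aldh1a1 could also match its neighbour Aldh1a7, an enzyme gene specific to rodents that arose as a copy of it. Aldh1a7 took the same order of tumours, with 73, 24, 360 and 5 counts, or 1.72, 0.694, 9.41 and 0.122 CPM. From tumour 3 to tumour 4 the ratio was 53.0 for Aldh1a1 (exact counting interval 20.4 to 196) and 77.1 for Aldh1a7 (32.7 to 239).

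How far reads of these neighbours can be told apart is seen in their coding sequences (GENCODE M21, GRCm38). The sequences are 1503 bases each, are identical at 1377 positions (91.6%) and share an unbroken run of 100 bases, the length of 1 read. Of all runs of 25 bases in Aldh1a7, 23.9% also occur in Aldh1a1, while of its runs of 100 bases 1 does. Exon bases outside the coding sequence were not compared. Runs of 25 bases of Aldh1a2 and of Aldh1a3 found in Aldh1a1 numbered 0. The most alike stretch of 120 bases, coding bases 199 to 318, is shown for both genes, with the differing base in capitals.
Aldh1a1: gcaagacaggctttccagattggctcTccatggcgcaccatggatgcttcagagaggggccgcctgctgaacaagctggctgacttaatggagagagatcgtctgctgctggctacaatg
Aldh1a7: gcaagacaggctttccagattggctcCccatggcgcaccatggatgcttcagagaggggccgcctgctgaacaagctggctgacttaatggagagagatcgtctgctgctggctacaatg
A read of 100 bases that lies wholly within this stretch differs between the genes at 1 base. Where such reads were counted depends on how the authors' counting treated them and the other read of each pair. The share of such reads in the counts was not tested.

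As a family the ALDH1A genes differed in level and in make-up between tumours. Per kilobase of exon, the 4 genes Aldh1a1, Aldh1a2, Aldh1a3 and Aldh1a7 summed to 4.26, 8.69, 29.7 and 24.5 CPM in tumours 1 to 4. Of these sums Aldh1a3 held 40.6, 86.8, 55.2 and 91.6% in that order, and in tumour 1 Aldh1a2 came close to it with 33.7%. By counts, without correction for length, Aldh1a3 held 56.1, 91.8, 70.3 and 95.6% of the family. The Wilson 95% intervals of the shares by counts were 52.1 to 60.0%, 90.2 to 93.2%, 68.9 to 71.6% and 95.01 to 96.2%, for counting error only. Tumours 3 and 4 thus had summed levels per kilobase of like size with different make-up, as the sum in tumour 3 held Aldh1a2 (25.97%), Aldh1a7 (15.3%) and Aldh1a1 (3.52%) besides Aldh1a3. In tumour 4 these shares per kilobase were 8.10% for Aldh1a2, 0.241% for Aldh1a7 and 0.0808% for Aldh1a1.

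**Figure D2:**
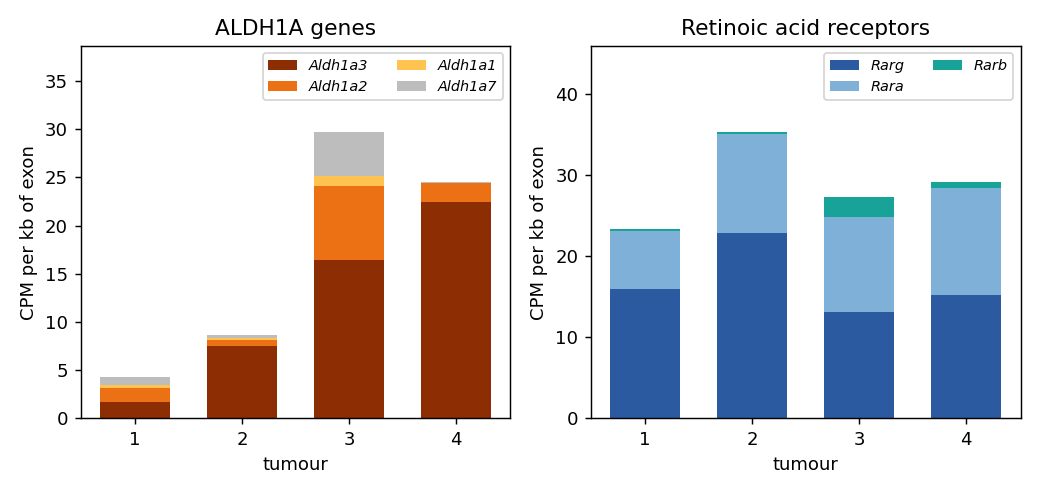
Stacked levels per kilobase of exon (CPM per kb) of the ALDH1A genes (left) and of the retinoic acid receptors (right) in tumours 1 to 4. The ALDH1A sum runs from 4.26 in tumour 1 to 29.7 in tumour 3, and the receptor sum from 23.3 in tumour 1 to 35.3 in tumour 2.

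Crabp2, which carries retinoic acid to its receptors in the nucleus, had the widest spread of the tested genes of the set. Crabp2 (Entrez gene 12904, chromosome 3, 87948693 to 87953372, GRCm38) had 189, 298, 27 and 1490 counts in tumours 1 to 4, or 4.46, 8.62, 0.706 and 36.4 CPM. Tumour 4 was high, tumours 1 and 2 were intermediate and tumour 3 was low, so that the 2 tumours with the most Aldh1a3 lay at opposite ends for Crabp2. The gene passed the spread test (edgeR adjusted p = 0.000133, SD of log2 CPM 2.32). Without tumour 4 it did not pass (edgeR adjusted p = 0.18), and without tumour 3 its log2 range was 3.00. It passed with Holm adjustment (edgeR adjusted p = 0.0236) and was not a dispersion outlier by DESeq2.

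Crabp1, a cytoplasmic carrier of retinoic acid, was scarce, and in tumour 3 it lay below the limit of 3 counts taken here. Crabp1 (Entrez gene 12903, chromosome 9) had 64, 20, 1 and 23 counts in tumours 1 to 4, or 1.51, 0.579, 0.0261 and 0.562 CPM. Tumour 1 was the highest and tumour 3 the lowest, and the ratio between them was 57.7 with an exact counting interval of 9.999 to 2316. Both carriers were therefore lowest in tumour 3. In that tumour Fabp5, a fatty acid binding protein that also carries retinoic acid, was highest, with 282, 215, 857 and 219 CPM in tumours 1 to 4, a spread that did not pass (edgeR adjusted p = 0.133).

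Rara and Rarg, the receptor genes of the set with the higher levels per length, varied little between tumours. Rara (Entrez gene 19401, chromosome 11) had 31.5, 52.8, 51.0 and 57.7 CPM in tumours 1 to 4, with tumour 1 lowest and the other tumours close together. Rarg (Entrez gene 19411, chromosome 15) had 67.7, 97.6, 55.7 and 64.9 CPM, with tumour 2 highest. Neither gene passed the spread test (edgeR adjusted p = 1 for each). The SDs of log2 CPM were 0.39 for Rara and 0.34 for Rarg, close to the median of 0.35 over all genes tested.

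Rarb, the receptor that retinoic acid itself induces and whose promoter element is printed above, was low in 3 tumours and higher in tumour 3. Rarb (Entrez gene 218772, chromosome 14, 16430839 to 17082331, GRCm38) had 48, 58, 506 and 149 counts in tumours 1 to 4, or 1.13, 1.68, 13.2 and 3.64 CPM. The 11.7-fold span did not pass the spread test (edgeR adjusted p = 0.0774), although it did without tumour 4 (edgeR adjusted p = 0.0318). Without tumour 3 the log2 range was 1.62. Of its 5265 exon bases in GENCODE M21, 2020 overlap other annotated genes, 1793 of them Top2b, a topoisomerase gene on the opposite strand. In the RefSeq coordinates Top2b ends at 16430787, before Rarb begins at 16430839, so the overlap depends on the annotation. Which annotation the counting used was not known here, and the share of such reads in the Rarb counts was not tested. Top2b had 195, 249, 154 and 290 CPM in tumours 1 to 4 and was lowest in tumour 3, where Rarb was highest. No other gene of the set shares exon bases with another gene of GENCODE M21.

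Per kilobase of exon, Rarb made up 0.922, 0.902, 9.21 and 2.37% of the summed receptor level in tumours 1 to 4. By counts, without correction for length, it held 1.13, 1.10, 11.03 and 2.88% (Wilson 95% intervals 0.852 to 1.49%, 0.854 to 1.42%, 10.2 to 11.97% and 2.46 to 3.37%). Rarg made up 68.1, 64.8, 47.9 and 52.2% and Rara 30.96, 34.3, 42.8 and 45.4% of the level per kilobase. The share of Rarg was thus lower, and that of Rara higher, in tumours 3 and 4 than in tumours 1 and 2. These intervals cover counting error only.

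Cyp26b1, which hydroxylates retinoic acid and so clears it, took yet another order of tumours. Cyp26b1 (Entrez gene 232174, chromosome 6) had 436, 799, 1392 and 253 counts in tumours 1 to 4, or 10.3, 23.1, 36.4 and 6.18 CPM. Tumour 3 was highest and tumour 4 lowest, a 5.89-fold span that did not pass (edgeR adjusted p = 0.247). Cyp26a1, whose promoter element is shown with that of Rarb, was scarce and not tested, with 7, 6, 10 and 62 counts, and it was highest in tumour 4. The 2 hydroxylase genes therefore lay at opposite ends in tumour 4.

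**Figure D3:**
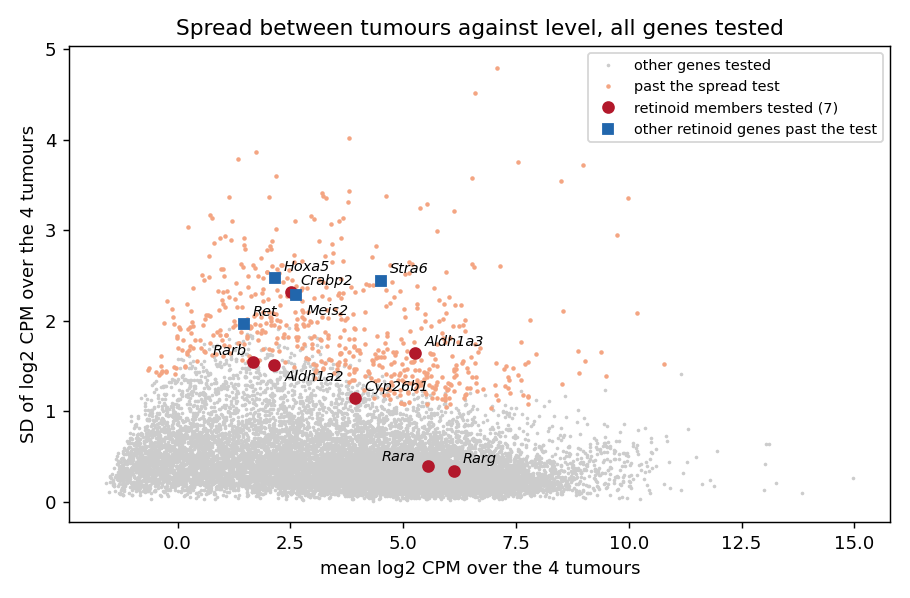
SD of log2 CPM over the 4 tumours against mean log2 CPM for all 15808 genes tested (grey), with genes past the spread test in orange, the 7 tested genes of the set as red circles and 4 further retinoid genes past the test as blue squares. Rara and Rarg sit in the body of the cloud at SDs of 0.39 and 0.34, and Aldh1a3 and Crabp2 sit at 1.65 and 2.32.

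The 9 genes were put in order by their level per kilobase of exon. The order of the means was Rarg (16.8 ± 4.26 CPM per kb), Aldh1a3 (12.03 ± 9.20), Rara (11.1 ± 2.64), Crabp2 (9.49 ± 12.3), Cyp26b1 (3.55 ± 2.55), Aldh1a2 (2.94 ± 3.24), Rarb (0.934 ± 1.07), Crabp1 (0.834 ± 0.768) and Aldh1a1 (0.384 ± 0.455), each as SD over 4 tumours. Every pair of neighbours in this order had overlapping ranges over the tumours, which is a description and not a test of difference within tumours. Aldh1a2 stood above its neighbour Rarb in every tumour. In tumours 1 to 4 it had 1.44, 0.600, 7.72 and 1.98 CPM per kb, against 0.215, 0.319, 2.51 and 0.691 for Rarb. The other pairs of neighbours changed order between tumours. The order was the same with coding length in place of exon length.

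The rest of the pathway was followed through 93 genes in 9 lists, of which 84 lie outside the set. Of these 84, 58 were tested and 4 passed, Stra6, Hoxa5, Meis2 and Ret, beside 3.63% over all genes tested. Their median SD of log2 CPM was 0.33, near the 0.35 of all genes tested. In uptake, storage and transport 1 of 8 tested genes passed. That gene was Stra6, the membrane receptor that takes up retinol from its plasma carrier and itself a retinoic acid-induced gene, with 12.4, 13.8, 270 and 5.74 CPM in tumours 1 to 4. Tumour 3 stood 19.6-fold above the next tumour (edgeR adjusted p = 1.23e-15), and without it the gene did not pass (edgeR adjusted p = 1).

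The steps between retinol and retinaldehyde held 13 tested genes. Of these, 0 passed edgeR's spread test, 2 stood at an unadjusted p below 0.05 and 0 were dispersion outliers by DESeq2. Over all genes tested these shares were 3.63, 8.74 and 0.576%. Adh5, an alcohol dehydrogenase, had 93.1 ± 10.5 CPM (SD, n = 4), and Rdh12, a retinol dehydrogenase, was highest in tumour 1 at 4.43 CPM. Of 6 tested receptors and partners 0 passed by edgeR or DESeq2, and 1, Rarb, stood at an unadjusted p below 0.05. Rxra, the RXR partner with the highest level per kilobase in each tumour, had 118, 95.8, 51.5 and 156 CPM in tumours 1 to 4 and was lowest in tumour 3. Rxrg, an RXR gene too scarce to be tested, had 137, 2, 11 and 3 counts. Of 10 tested coregulators 0 passed by edgeR or DESeq2 and 0 stood at an unadjusted p below 0.05, and the corepressor gene Ncor1 held 340 ± 19.8 CPM (SD, n = 4). Of 13 other ALDH genes tested 0 passed by edgeR or DESeq2 and 1, Aldh1l1, stood at an unadjusted p below 0.05, with 14.3, 7.84, 1.15 and 2.32 CPM. Aldh2, which clears acetaldehyde, had 136 ± 13.6 CPM (SD, n = 4).

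Genes known to be induced by retinoic acid held 5 passes among 16 tested, Stra6, Hoxa5, Meis2, Crabp2 and Ret, beside 3.63% over all genes tested, and they did not take 1 order of tumours. Of these 5, Stra6 and Meis2 were also dispersion outliers by DESeq2, and Hoxa5 and Ret did not pass with Holm adjustment (edgeR adjusted p = 1 and 0.601). The list includes Rarb, Crabp2 and Cyp26b1 of the set and was not chosen independently of earlier results. Meis2, a homeobox cofactor of HOX proteins, had 2.55, 6.71, 54.7 and 1.44 CPM in tumours 1 to 4, highest in tumour 3 (edgeR adjusted p = 3.91e-07, and 0.911 without tumour 3). Hoxa5, a HOX transcription factor, had 8.56, 10.8, 12.2 and 0.293 CPM and was set apart by its low level in tumour 4 (edgeR adjusted p = 0.0114, and 1 without tumour 4). Ret, a receptor tyrosine kinase, had 1.51, 2.49, 0.732 and 18.7 CPM (edgeR adjusted p = 0.00215, and 1 without tumour 4). Ret and Crabp2 peaked in tumour 4 and had their lowest level in tumour 3, whereas Stra6 and Meis2 did the reverse. The corepressor gene Nrip1 did not pass, at 92.6, 152, 226 and 140 CPM.

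**Figure D4:**
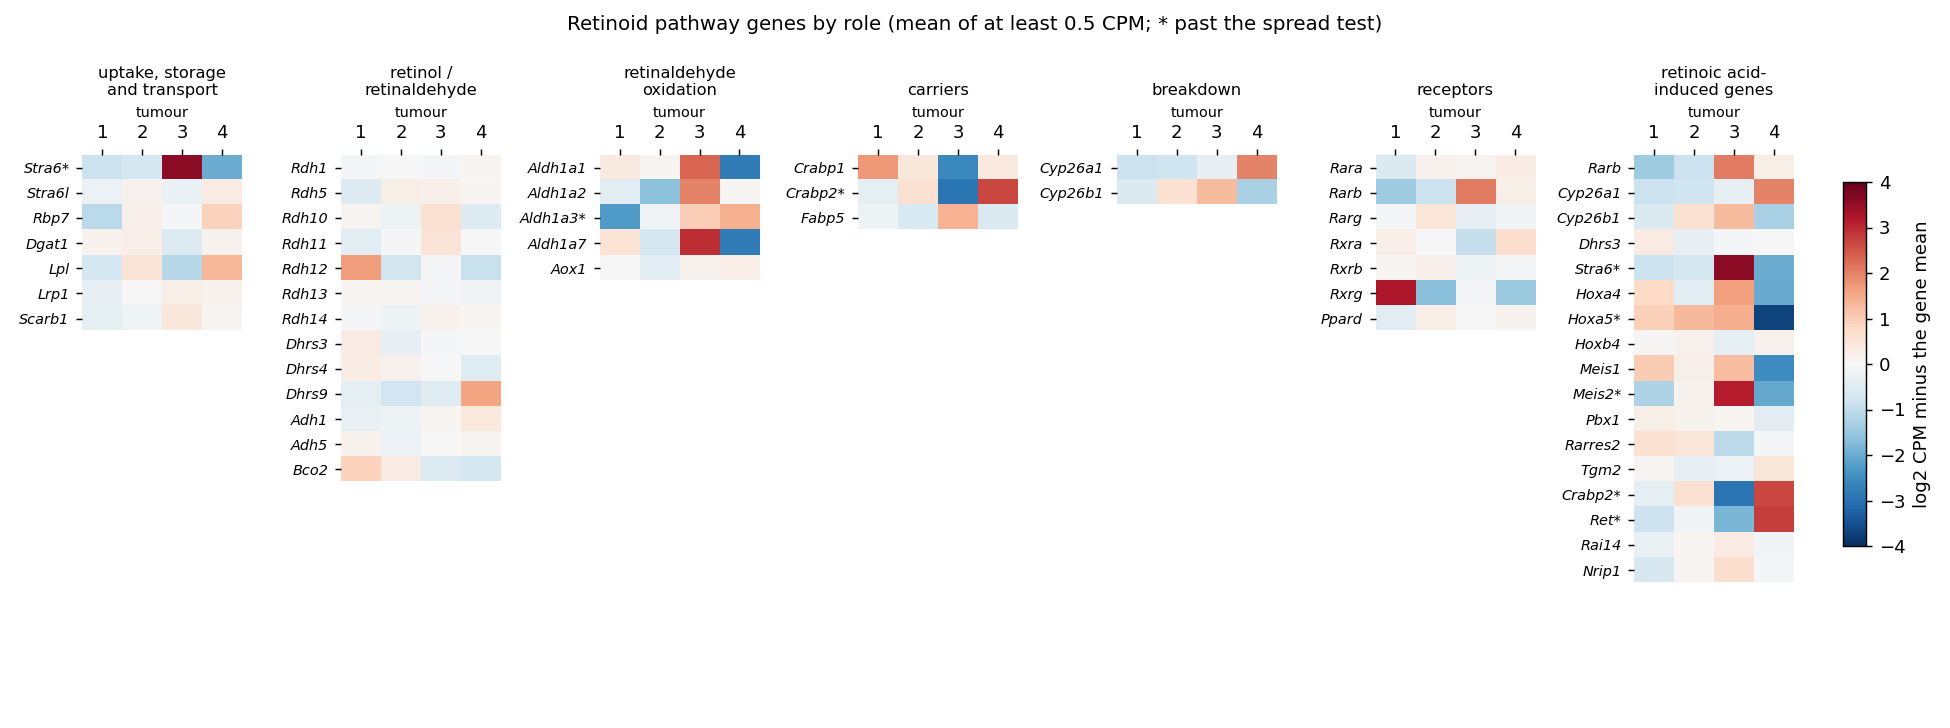
Log2 CPM of retinoid genes relative to each gene's mean over tumours 1 to 4 (colour, from -4 to 4), grouped by role, for reported genes averaging 0.5 CPM or more; a star marks genes past the spread test. Tumour 3 is the highest for Stra6, Aldh1a1, Aldh1a2, Aldh1a7, Rarb, Cyp26b1, Fabp5 and Meis2 and the lowest for Crabp1, Crabp2 and Ret, while Rara, Rarg and Rxrb vary little.

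Several retinoid genes were highest in tumour 3, the library that also held the skeletal muscle transcripts. Of the muscle list, Ttn, the giant spring protein of muscle, reached 860 CPM in tumour 3 and stayed between 2.005 and 6.25 CPM elsewhere, and Myh1 had no counts in tumours 2 and 4. The part of muscle tissue in the values of Stra6, Meis2, Rarb, Aldh1a1, Aldh1a2, Fabp5 and Cyp26b1 was not tested. Fabp4, of the adipocyte list, was also highest in tumour 3 (91.1 CPM, against 7.94 to 25.9 CPM elsewhere), although 7 of the 8 adipocyte markers were highest in tumour 2. Fibroblast markers summed to 2522, 2995, 3427 and 3773 CPM and endothelial markers to 229, 171, 209 and 169 CPM in tumours 1 to 4, with 0 of 10 and 0 of 8 tested members past edgeR's spread test. In both lists 0 stood at an unadjusted p below 0.05 and 0 were dispersion outliers by DESeq2.

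Crabp2, Ret and Aldh1a3 were highest in tumour 4, the tumour in which basal epithelial markers were highest. The 7 basal markers summed to 95.5, 153, 156 and 374 CPM in tumours 1 to 4, and 6 of them were highest in tumour 4; the exception was Acta2, lowest there. All 7 basal markers were tested and 5 passed the spread test, beside 3.63% over all genes tested. Among them Krt5 had 1.58, 4.08, 0.68 and 87.3 CPM in tumours 1 to 4. The part of basal cells in the values of Crabp2, Ret and Aldh1a3 was not tested. Aldh1a3 was high in tumour 3 as well, where Krt5 had its lowest level, 0.68 CPM. Krt14, another basal marker, had 1.89, 8.65, 28.4 and 89.9 CPM in tumours 1 to 4 (edgeR adjusted p = 3.86e-08). Krt14 thus took the same order of tumours as Aldh1a3, and Krt5 did not. Luminal progenitor markers other than Aldh1a3 summed to 1000.09, 1279, 1071 and 1645 CPM in tumours 1 to 4. Of these 7 markers, all tested, 1 passed the spread test and 4 stood at an unadjusted p below 0.05. Over all genes tested these shares were 3.63 and 8.74%. Itgb3, an integrin gene, passed with 53.7, 32.9, 110.4 and 13.2 CPM (edgeR adjusted p = 0.0112), highest in tumour 3 and lowest in tumour 4. Elf5, a transcription factor of luminal progenitors, had 104.1, 190, 71.6 and 388 CPM and was highest in tumour 4 (edgeR adjusted p = 0.0538). From lowest to highest tumour the markers spanned 1.38-fold (Kit, a receptor gene) to 8.51-fold (Lif, a cytokine gene), and Aldh1a3 spanned 13.0-fold.

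The genes whose profile over the 4 tumours lay nearest to those of Aldh1a3 and Crabp2 were found among 11134 named genes of at least 5 CPM, as the Euclidean distance between log2 CPM centred on each gene's mean. For Aldh1a3 these were Apobr, an apolipoprotein B receptor gene (distance 0.581), Cryab, a small heat shock protein gene (0.663), and Bahcc1 (0.738). Apobr had 10.2, 76.7, 116 and 152 CPM in tumours 1 to 4. For Crabp2 they were Gdpd3, a phosphodiesterase gene (0.708), G0s2, an inhibitor gene of fat breakdown (0.815), and Bglap3, of the osteocalcin family (0.894). Gdpd3 had 4.58, 8.48, 1.15 and 61.4 CPM. The likeness is a description over 4 tumours.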

How the data were processed

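Poly-A RNA of 4 MMTV-R26Met mammary tumours was fragmented, copied by random priming and sequenced as paired reads of 100 bases, per the labels' protocols. The authors deposited whole-number counts per Entrez gene with no normalization. FastQC and the builds GRCm38 and mm10 are named per the submitters' processing notes; the sources used here do not give the aligner, the counting program or whether strand was used. Columns of per-sample values left unused numbered 0. Of 28440 rows 24480 (86.08%) matched a symbol in RefSeq GRCm38.p6, including the 9 genes.

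The analysis used edgeR 4.0.16 (R 4.3.3). filterByExpr (count cutoff of 10, 15 in total) left 15808 genes, scaled by TMM; log2 CPM used a prior count of 2. Each gene's deviance from a constant level, under the negative binomial model with trended dispersion, was compared with chi-square (3 degrees of freedom). The test was tested on simulated counts. Exon lengths are unions of GENCODE M21 exons.

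The genes, lists and tests were chosen with earlier results of these data known. The rule for named genes took the 9 genes, in each retinoid list the gene of highest mean, the tested gene of largest SD and every gene past the test, the 3 nearest profiles of each of the 9 that passed, and the highest marker of each list, 40 in all; not all are described, and some genes of the lists are counted but not reported by name here. Aldh1a7, Cyp26a1, Rxrg, Top2b, Kit, Itgb3, Elf5, Lif, Cldn4, Msln, Wt1, Upk1b, Krt5, Krt14, Myh1, Upk3b and Lrrn4 were named after their values were seen. Alternatives were scaling by RLE or by library size alone, testing every row or those averaging at least 5 CPM, Holm adjustment, the common dispersion, DESeq2 1.42.0 dispersion outliers, prior counts of 0.5 and 5, coding length, and leaving out each tumour.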

Additional observations from a re-analysis of the deposited data

Results flagged for a closer look

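In 3 of 89 genes examined, 1 tumour lay far from the other tumours on the log2 CPM scale, with a gap to the nearest tumour that took up most of the whole range (Dixon's 95% criterion for 4 samples); chance alone flags about 1 in 20 such groups. Hoxa5 was low in tumour 4 (0.902 of the range). Dgat1, an enzyme gene of fat storage that can also esterify retinol, was low in tumour 3 at 36.5 CPM, against 58.1 to 63.5 CPM elsewhere (0.838). Dhrs9, a retinol dehydrogenase gene, was high in tumour 4 at 4.64 CPM, against 0.868 to 1.16 CPM elsewhere (0.833). None of the 9 genes of the set was among these 3.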

How the results depend on the processing

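The main counts past the spread test were 2 of the 7 tested genes of the set, 6 of the 65 tested retinoid genes and 574 of all 15808 genes tested (3.63%). RLE scaling, library size alone and a mean of at least 5 CPM left the number of the 9 genes at 2 and of retinoid genes at 6. Holm adjustment gave 1 (Crabp2, without Aldh1a3), 3 and 198 (1.25% of all), and DESeq2's dispersion outliers 0, 2 and 91 (0.576%). The common dispersion gave 4 of the 9 genes, 10 retinoid genes and 681 of all genes (4.31%), and no count filter gave 895 of the 23632 genes then tested. Leaving out each tumour gave 1 to 3 of the 9 genes, 4 to 6 retinoid genes and 367 to 417 of all genes. Fewer samples, a stricter adjustment or a flatter dispersion enter these numbers by construction; the cause was not tested further. For single genes, 201 of 219 values of the spread test kept their side of the threshold, 13 lost a call and 5 gained one. Of 72 log2 ranges of the 9 genes 8 moved by more than 1 SD, each on leaving out a tumour. The order of the 9 genes per length was the same under both alternatives (9 of 9 ranks). No paired analysis was possible because the 4 tumours form 1 group. Depth limits Crabp1 in tumour 3 and Aldh1a1 in tumour 4, at 1 and 4 counts.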
